A study of Homo sapiens with 8 samples.

Results

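SR proteins, heterogeneous nuclear ribonucleoproteins (hnRNPs) and CDC-like kinases (CLKs) regulate how pre-mRNA is spliced. Their transcripts were followed in 2 human myeloma cell lines with and without Zalypsis. The genes were chosen by name: 36 genes of these families, matched by gene identifier to the probe sets of the array so that older symbols were included. Of these, 34 had a probe set annotated to 1 gene symbol, out of 19775 genes on the array, and together they had 133 such probe sets. SRSF2 and HNRNPH2 had only probe sets shared with another annotated gene and were not analysed here. In all, 15 probe sets of the listed genes, 5 of them of PTBP1, were left out for that reason. All 34 genes and 117 of the 133 probe sets passed the filter on low signal.

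Zalypsis is a marine-derived compound that binds DNA. MM1S and OPM1 are established lines labelled as multiple myeloma, a cancer of plasma cells. The 8 arrays form 4 groups of 2: untreated MM1S, MM1S given Zalypsis at 5 nM in culture, untreated OPM1, and OPM1 given the same dose. Harvest followed once 15 to 20% of treated cells had died. The labels name no other agent and no hours of exposure. They also do not say whether the paired arrays of each group stem from independent cultures, and a p-value here reflects only how far such arrays spread, which may be technical.

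SR proteins bind exonic enhancers through RNA recognition motifs and recruit the spliceosome through a domain rich in arginine and serine. HnRNPs coat nascent transcripts, and many of them silence exons or set where a splice site is used. CLKs phosphorylate the arginine-serine domain and thereby release SR proteins from nuclear speckles. Many genes of these families make several transcript forms, some of which carry an exon with a premature stop codon or retain an intron, and the proteins regulate their own transcripts in this way. A probe set reads 1 stretch of a transcript, so forms of a gene can move differently on the array.

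Values are signals on a linear scale. Where a gene is given as going from 2 signals to 2 others, the first 2 are control arrays 1 and 2 and the last 2 are the treated arrays 1 and 2. Changes are log2 differences of signal + 32, which understates changes of dim probe sets, with their standard error. Calls use limma across 11865 genes with an adjusted p under 0.05, each gene being read by its brightest probe set on average. Signals of different probe sets are not compared with each other. A lower signal in these bulk samples can mean fewer cells with a transcript or less of it per cell, which cannot be told apart.

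Some array measures moved with the groups. The poly-A controls are bacterial transcripts spiked into the RNA ahead of labelling. Over their 4 probe sets the geometric mean signal was 19.7 to 25.7 in MM1S, 299.7 and 448 in untreated OPM1 and 1862 and 1349 in treated OPM1. Upper-quartile signals were 77.5 and 78.7 in treated OPM1 and 101 to 115 elsewhere. The 3' to 5' signal ratio of ACTB was 5.80 on OPM1 control 1 and 1.78 to 2.62 on the other 7 arrays. The 10 plasma cell markers had a summed signal of 35235 to 37483 in untreated MM1S and of 5754 to 6466 in untreated OPM1, where SDC1 was below the lowest signal tested (28.9). The 11 B-lineage markers, 10 of them on a probe set of their own, went the opposite way, with 882 to 1134 in MM1S and 15609 to 17175 in OPM1, where all 10 were above that signal. The cells are therefore called OPM1-labelled below, and the part of these measures in the results was not tested. The B-lineage sum was 4760 to 5816 in treated OPM1-labelled cells, and the plasma cell sum was 26820 to 27938 in treated MM1S and 4331 to 4799 in treated OPM1-labelled cells. The 6 T cell markers summed to at most 1331, in untreated MM1S, where all but CD28 were below the lowest signal tested. In OPM1-labelled cells they summed to at most 149.9. The myeloid markers, 5 of 7 on a probe set of their own, summed to at most 190.8 in any group.

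In MM1S, Zalypsis raised all 3 CLK genes and lowered hnRNP and PTBP genes, with the deepest falls in HNRNPD and PTBP3. Of the 34 genes, 5 were called higher and 11 lower, where 16.6% of all tested genes were called higher and 21.7% lower. The median log2 change was -0.21, against 0.02 for all tested genes. By family, 3 of 3 CLK genes rose, 2 of 8 SR genes rose and 1 fell, 1 of 2 TRA2 genes fell, 7 of 19 hnRNP genes fell with 0 higher, and both PTBP genes fell. Past the 2-fold threshold named in the series' design text, 0 of the 34 were higher and 2 lower, where 3.87% and 10.5% of all tested genes were. Without MM1S control 2 only 3 genes were called higher, and without MM1S Zalypsis 2 only 7 were called lower. With arrays scaled within each line to the poly-A controls, which lie near background in MM1S, 0 rises and 6 falls were called. Of all tested genes 2.71% were then called higher and 16.4% lower.

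CLK1 went from 475 and 445 to 928 and 775 in MM1S (log2 change of 0.84 ± 0.15, adjusted p = 1.2e-04). CLK2 went from 447 and 401 to 663 and 655 (log2 change of 0.60 ± 0.15, adjusted p = 0.0027). CLK4 went from 263 and 273 to 411 and 390.1 (log2 change of 0.53 ± 0.14, adjusted p = 0.0041). For each of the 3 kinases both treated arrays lay above both controls, by less than 2-fold on average. CLK4 was called on a probe set with the suffix _s_at, which marks probes that match several transcripts. Without sets of that suffix or of _x_at the change of CLK4 was 0.19 (adjusted p = 0.317). CLK1 and CLK2 had no probe set without the suffix _s_at, so their rises could not be read in this way. The same holds for SRSF5, whose sets all carry _s_at or _x_at.

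Among the SR genes, SRSF5 rose in MM1S from 851 and 717 to 1282 and 1254 (log2 change of 0.68 ± 0.19, adjusted p = 0.0079) but missed the threshold without MM1S control 2 (adjusted p = 0.077). SRSF11, which encodes an arginine-serine protein that contacts U2AF, rose from 2604 and 2457 to 3230.3 and 3153 (log2 change of 0.33 ± 0.11, adjusted p = 0.019), and its call was lost without MM1S control 2, Zalypsis 1 or Zalypsis 2. SRSF3, a small SR protein that also acts in mRNA export, fell from 6135 and 5611 to 3760.2 and 3968 (log2 change of -0.60 ± 0.13, adjusted p = 6.8e-04). Its groups did not overlap, but as the mean of all its probe sets, also those under the filter, the fall was not called (-0.32, adjusted p = 0.083). SRSF1, SRSF4, SRSF6, SRSF7 and SRSF10 were not called, with values from -0.27 for SRSF1 (signals from 3104 and 2832 to 2634 and 2274) to 0.30 for SRSF6. TRA2B, a relative of the fly splicing factor transformer-2, went from 3544 and 3696 to 3195 and 2609.6 (log2 change of -0.32 ± 0.12, adjusted p = 0.044), but the call was lost in 10 settings, among them those without MM1S control 1, control 2 or Zalypsis 2.

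HNRNPD, also known as AUF1, which binds AU-rich elements and promotes mRNA decay, had the deepest fall in MM1S, from 4721 and 4689 to 1857 and 1775 (log2 change of -1.36 ± 0.12, adjusted p = 1.7e-08). PTBP3, a relative of the polypyrimidine tract-binding repressor, fell from 887 and 776 to 388 and 414 (log2 change of -0.99 ± 0.15, adjusted p = 1.3e-05). HNRNPDL, the closest paralog of HNRNPD, fell from 2955 and 2902 to 1754 and 1487 (log2 change of -0.85 ± 0.13, adjusted p = 1.9e-05). In all 3 the treated arrays lay well below the controls, and the spread within a group was small beside the change. HNRNPH3 fell from 911 and 845 to 525 and 498 (log2 change of -0.74 ± 0.15, adjusted p = 3.3e-04). PTBP1, the polypyrimidine tract-binding protein, fell from 3308 and 2897 to 2014 and 1879 (log2 change of -0.66 ± 0.13, adjusted p = 2.4e-04), measured by its only usable probe set above the signal filter. HNRNPA1, an abundant exon silencer, read 2502 and 2329 on the controls and 1687 and 1648 on the treated arrays. HNRNPA1, HNRNPA2B1, HNRNPM and HNRNPUL1 fell by smaller amounts, with log2 changes of -0.53, -0.55, -0.49 and -0.51. The last 2 calls, and that of HNRNPA1, were lost without MM1S Zalypsis 2, and those of HNRNPA1 and HNRNPUL1 also without MM1S control 1. Read without sets of the suffixes _s_at and _x_at, 5 of the 11 falls in MM1S turned to positive values: 0.82 for HNRNPD, 0.72 for SRSF3, 0.59 for HNRNPA2B1, 0.49 for HNRNPA1 and 0.32 for HNRNPM. Each is the brightest remaining set. Dimmer sets without these suffixes fell for HNRNPD (221480_at, from 502 and 447 to 176 and 183) and SRSF3 (235324_at, from 103 and 111 to 60.9 and 73.5). No tested set of this kind fell in HNRNPA2B1, HNRNPA1 or HNRNPM. The other 12 hnRNP genes were not called on their brightest sets, where their log2 changes ran from -0.27 in HNRNPC to 0.29 in HNRNPH1. Without sets of the suffixes _s_at and _x_at, HNRNPU (-0.82), HNRNPC (-0.64), HNRNPLL (-0.45) and HNRNPR (-0.40) were called lower in MM1S. The HNRNPA3 set 211932_at went from 933 and 816 to 421 and 469. The HNRNPA0 set 201055_s_at went the other way, from 399 and 380 to 540 and 621.

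In the OPM1-labelled cells, the same 3 CLK genes rose with SRSF5 and SRSF6, while 16 of 19 hnRNP genes and both PTBP genes fell, several of them far more deeply than in MM1S. Of the 34 genes, 5 were called higher and 21 lower, where 25.5% of all tested genes were called higher and 39% lower. The median log2 change was -0.68, against -0.07 for all tested genes. Of the 8 SR genes 2 rose and 2 fell, and of the 2 TRA2 genes 1 fell. Past 2-fold, 2 of the 34 were higher and 13 lower, where 11.5% and 27.4% of all tested genes were. After quantile normalization 9 were called higher and 21 lower, where 38.5% and 33.4% of all tested genes were. With the poly-A scaling 0 rises and 32 falls were called, where 0.674% and 91.9% of all tested genes were, the 34 genes had a median of -2.73, and all tested genes one of -1.70. The rises below hold relative to the other genes on the arrays.

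CLK1 had the largest rise of the 34 genes in the OPM1-labelled cells, from 132 and 146 to 789 and 752 (log2 change of 2.23 ± 0.15, adjusted p = 2.9e-11), and stood at 0.32 with the poly-A scaling (adjusted p = 0.311). CLK4 went from 178 and 169 to 277 and 304 (log2 change of 0.65 ± 0.14, adjusted p = 2.9e-04), and CLK2 from 543 and 503 to 847 and 749 (log2 change of 0.58 ± 0.15, adjusted p = 0.0017), both of which turned to falls with the poly-A scaling (-1.19 and -1.43). Without sets of the suffixes _s_at and _x_at, the rise of CLK4 was not called in these cells either (0.25, adjusted p = 0.134). Treated CLK1 signals were near those of treated MM1S cells, while the untreated OPM1-labelled cells started lower. SRSF5 rose from 449 and 756 to 1674 and 2189 (log2 change of 1.66 ± 0.19, adjusted p = 1.4e-07), and SRSF6, an SR protein with a paired recognition motif, from 357 and 501 to 692 and 824 (log2 change of 0.79 ± 0.18, adjusted p = 6.7e-04). With the poly-A scaling these stood at -0.38 and -1.20. In both the treated arrays lay above the controls, and the 2 arrays of each group differed more than for the kinases.

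**Figure D1:**
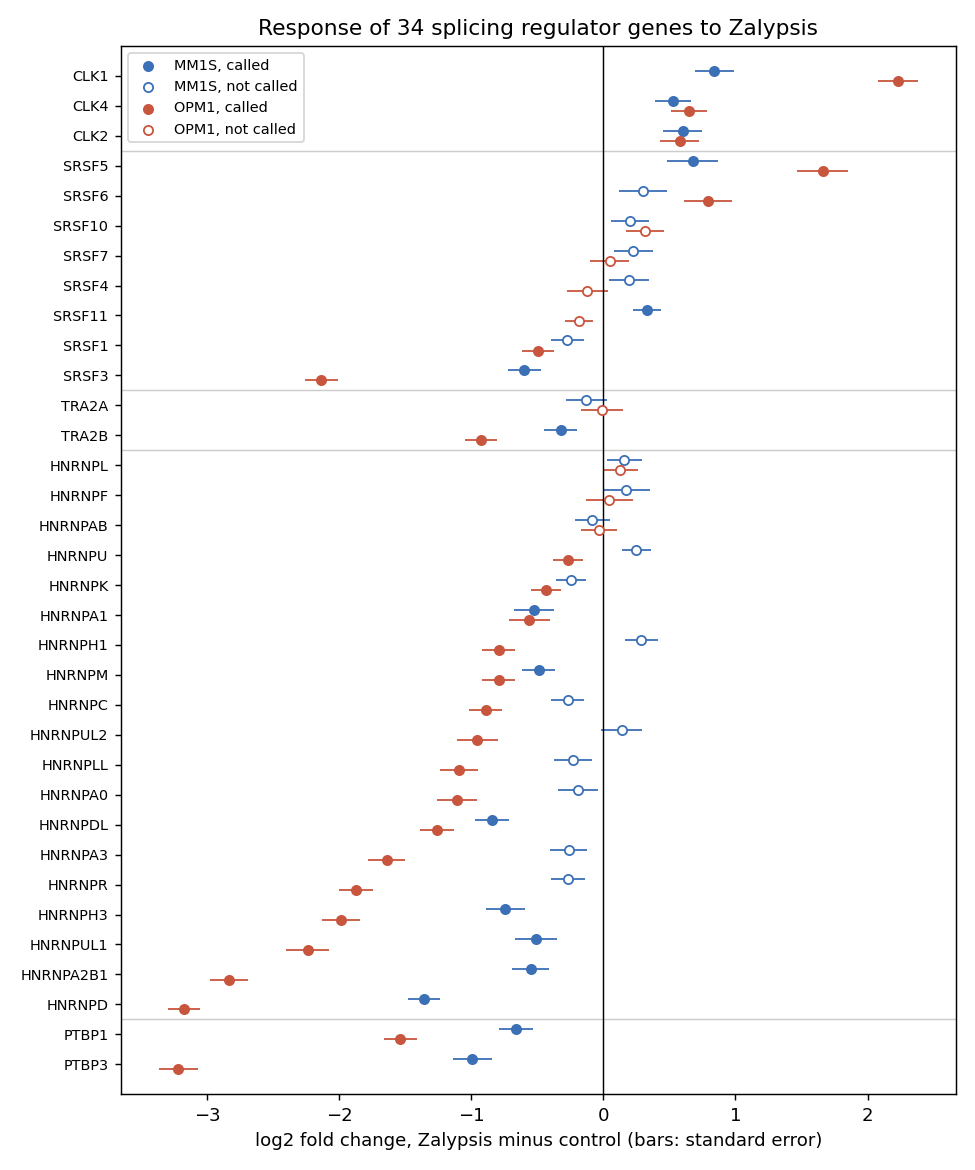
Log2 fold change of each of the 34 genes (Zalypsis minus control; bars are standard errors of the limma fit over 8 arrays, 2 per group) in MM1S (blue) and OPM1-labelled cells (red), by family; filled points were called at an adjusted p under 0.05 and open points were not. The 3 CLK genes lie to the right in both lines, and most hnRNP and PTBP genes lie to the left, down to -3.22 for PTBP3 in OPM1-labelled cells.

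PTBP3 had the deepest fall in the OPM1-labelled cells, from 1057 and 957 to 80.2 and 78.8 (log2 change of -3.22 ± 0.15, adjusted p = 8.1e-14). HNRNPD went from 5223 and 5121 to 512 and 578 (log2 change of -3.18 ± 0.12, adjusted p = 1.2e-14). HNRNPA2B1, which encodes a nuclear protein that binds pre-mRNA and microRNA precursors, went from 3581 and 4979 to 519.9 and 613 (log2 change of -2.83 ± 0.14, adjusted p = 3.8e-13) on its brightest probe set, a fall that its other 2 tested sets did not share. Mean control signals were 12.7, 9.49 and 7.56 times the treated ones in these 3 genes, and the arrays of a group lay close together except for the HNRNPA2B1 controls. HNRNPUL1, a relative of the scaffold attachment protein HNRNPU, fell from 1014 and 873 to 166 and 183 (log2 change of -2.24 ± 0.16, adjusted p = 9.4e-11). SRSF3 fell from 7037 and 6518 to 1313 and 1751 (log2 change of -2.14 ± 0.13, adjusted p = 4.2e-12), the deepest fall of an SR gene. PTBP1 went from 4020.4 and 4077 to 1315 and 1436. HNRNPH3, HNRNPR, HNRNPA3 and PTBP1 followed, with log2 changes of -1.99, -1.87, -1.64 and -1.54.

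The remaining falls in the OPM1-labelled cells lay between -1.26 for HNRNPDL and -0.27 for HNRNPU. Among them were HNRNPA0 (-1.11), HNRNPLL (-1.09), which directs CD45 splicing in lymphocytes, HNRNPUL2 (-0.95), TRA2B (-0.93), HNRNPC (-0.89), which binds uridine tracts, HNRNPM (-0.79) and HNRNPH1 (-0.79). SRSF1, the founding SR protein, fell from 3634 and 3287 to 2418 and 2473 (log2 change of -0.49 ± 0.12, adjusted p = 0.0014), and HNRNPK, which binds cytosine-rich RNA, changed by -0.43. HNRNPA1 went from 2127 and 3174 to 1771 and 1735 (log2 change of -0.56 ± 0.15, adjusted p = 0.0031), and its call was lost without OPM1 control 2 (adjusted p = 0.112). Without sets of the suffixes _s_at and _x_at, HNRNPA2B1 stood at 0.86 and HNRNPA1 at 1.05 in these cells, HNRNPM at 0.0039 (adjusted p = 0.982), HNRNPD at -0.43 and HNRNPR at -0.60, while SRSF1 (-2.61), HNRNPC (-3.48) and HNRNPU (-1.51) were further below 0 than on their brightest sets. A dimmer HNRNPD set of this kind, 221480_at, fell from 390 and 344 to 19.5 and 25.7. As means of probe sets, which take in any sets under the filter, the falls of SRSF1, TRA2B, HNRNPA0 and HNRNPM were not called (-0.15, -0.32, -0.18 and -0.12). The call of HNRNPU was lost in 8 settings, among them those without OPM1 control 2, Zalypsis 1 or Zalypsis 2. SRSF4, SRSF7, SRSF10, SRSF11, TRA2A, HNRNPAB, HNRNPF and HNRNPL were not called, with values from -0.18 to 0.31.

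**Figure D2:**
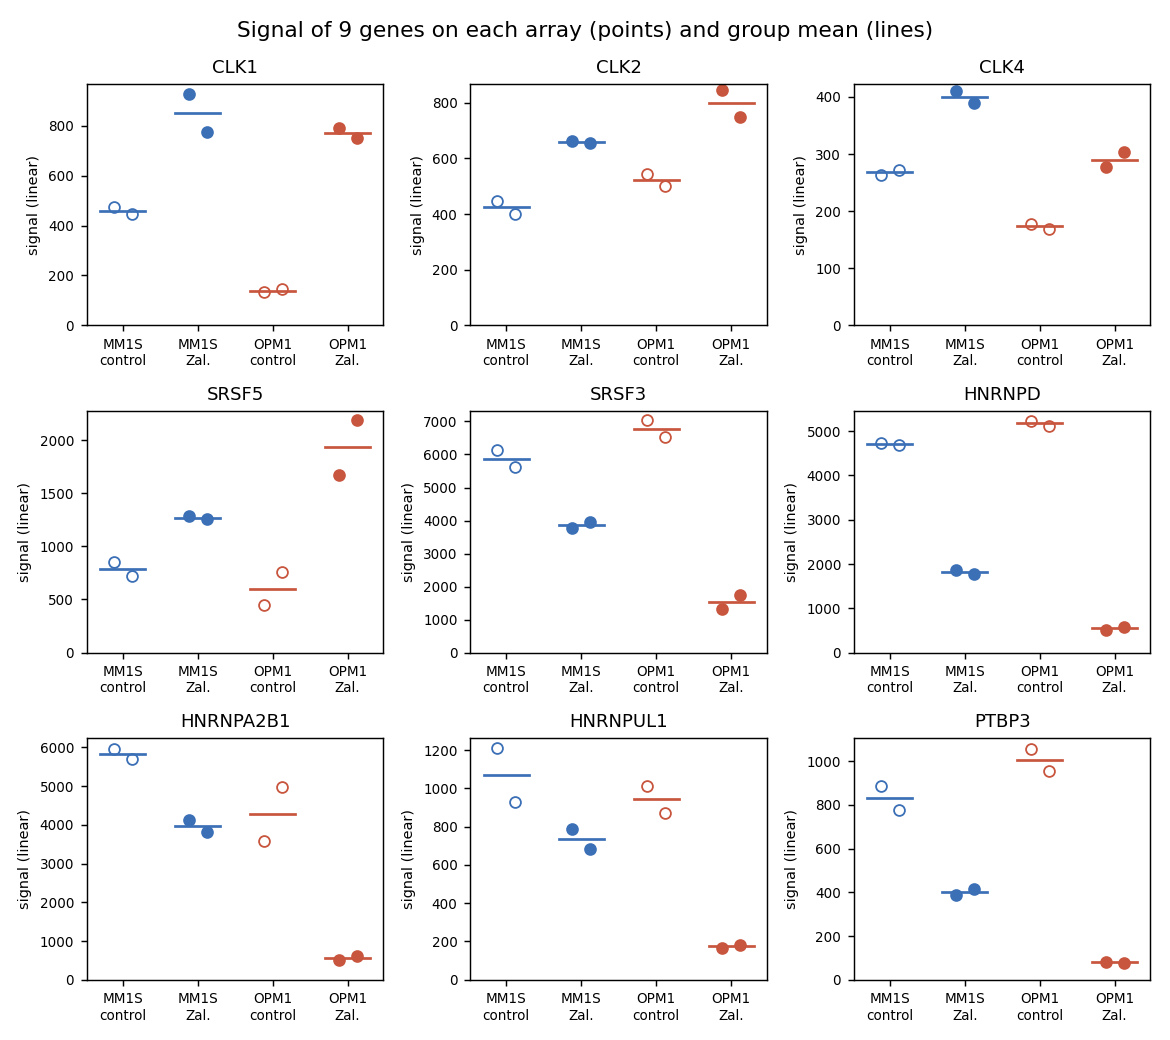
Signal on a linear scale, starting at 0, of 9 genes on each of the 8 arrays (open points control, filled points Zalypsis) with the mean of the 2 arrays of a group as a line. CLK1, CLK2, CLK4 and SRSF5 are higher on the treated arrays of both lines, and the other 5 genes are lower.

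The lines shared part of the change. SRSF5, CLK1, CLK2 and CLK4 were called higher in both lines, where 9.62% of all tested genes were. In both lines 11 genes were called lower, where 17.9% of all tested genes were: SRSF3, TRA2B, HNRNPA1, HNRNPA2B1, HNRNPD, HNRNPDL, HNRNPH3, HNRNPM, HNRNPUL1, PTBP1 and PTBP3. Another 10, among them HNRNPA3, HNRNPR and HNRNPC, were called lower in the OPM1-labelled cells and not called in MM1S, a pattern that 19.2% of all tested genes had. For the named genes this depended on the probe set. In MM1S, HNRNPA3 (-0.33) and HNRNPR (-0.38) were called lower as means of probe sets. HNRNPC was called lower there without sets of the suffixes _s_at and _x_at (-0.64). On their brightest probe sets 0 of the 34 were called in opposite directions (2.27% of all tested genes), and 7 were called in neither line (27%).

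The size of the response differed between the lines for 19 of the 34 genes by the interaction test, with 2 higher and 17 lower in the OPM1-labelled cells, where 15.8% and 31.7% of all tested genes were. HNRNPA2B1 (-2.28 ± 0.20, adjusted p = 1.8e-08), PTBP3 (-2.23 ± 0.21, adjusted p = 3.3e-08) and HNRNPD (-1.82 ± 0.18, adjusted p = 5.7e-08) had the largest differences toward a deeper fall. CLK1 (1.39 ± 0.21, adjusted p = 1.6e-05) and SRSF5 (0.98 ± 0.27, adjusted p = 0.005) rose more in the OPM1-labelled cells, but with the poly-A scaling the differences stood at -0.30 and -0.84, and neither was called. HNRNPA2B1 differed by 0.27 without probe sets of the shared kind, and this was not called. The difference of HNRNPR was likewise lost without those sets (-0.20, adjusted p = 0.360). As means of probe sets, 4 other differences were lost: HNRNPA0 (-0.30, adjusted p = 0.129), PTBP1 (-0.25, adjusted p = 0.176), HNRNPU (-0.34, adjusted p = 0.101) and TRA2B (-0.17, adjusted p = 0.550), the last also without MM1S Zalypsis 1. Means of probe sets take in sets under the signal filter, and of the 4 PTBP1 sets only the brightest passed it. The mean therefore cannot test the difference of PTBP1. The responses of CLK2 and CLK4 differed by -0.02 ± 0.21 and 0.12 ± 0.19, within their standard errors. The starting levels of CLK1 differed as well, with untreated OPM1-labelled cells below untreated MM1S by -1.52 on the log2 scale.

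Promoters of these genes are shown for 2 that rose in both lines and 2 that fell in both, so that promoters of genes with opposite responses can be read side by side. Each is the run of 250 bases that ends just before the RefSeq start in GRCh38.p14, printed 5' to 3' on the strand of the gene. The window of CLK1 is chr2:200864659-200864908 on the minus strand, that of SRSF5 chr14:69766892-69767141 on the plus strand, that of SRSF3 chr6:36594112-36594361 on the plus strand and that of HNRNPD chr4:82373992-82374241 on the minus strand. Capitals mark matches on either strand to 5 motifs searched by their letters alone, which do not overlap each other here: the CCAAT box, the full cAMP response element TGACGTCA, the ETS core CCGGAAG, the TATA box TATAAA and the NRF1 site GCATGCGC.
CLK1: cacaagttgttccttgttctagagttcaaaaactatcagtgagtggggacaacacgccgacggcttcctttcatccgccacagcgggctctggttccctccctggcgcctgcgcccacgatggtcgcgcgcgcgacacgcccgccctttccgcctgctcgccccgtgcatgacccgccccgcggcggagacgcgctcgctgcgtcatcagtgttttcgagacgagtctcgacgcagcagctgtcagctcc
SRSF5: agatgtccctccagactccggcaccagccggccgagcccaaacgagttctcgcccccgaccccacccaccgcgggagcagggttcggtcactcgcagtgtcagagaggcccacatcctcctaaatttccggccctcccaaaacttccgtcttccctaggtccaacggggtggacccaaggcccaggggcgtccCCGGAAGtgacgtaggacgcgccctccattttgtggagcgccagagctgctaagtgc
SRSF3: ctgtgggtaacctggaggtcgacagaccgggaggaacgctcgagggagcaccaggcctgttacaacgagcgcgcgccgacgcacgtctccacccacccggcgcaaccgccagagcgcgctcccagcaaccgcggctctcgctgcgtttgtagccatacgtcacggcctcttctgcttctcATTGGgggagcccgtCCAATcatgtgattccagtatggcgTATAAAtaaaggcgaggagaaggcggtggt
HNRNPD: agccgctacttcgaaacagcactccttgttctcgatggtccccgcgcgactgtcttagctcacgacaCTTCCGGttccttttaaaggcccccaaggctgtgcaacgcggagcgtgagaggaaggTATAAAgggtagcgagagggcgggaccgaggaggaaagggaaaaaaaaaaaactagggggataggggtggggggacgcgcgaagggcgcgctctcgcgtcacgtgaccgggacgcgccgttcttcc
CLK1 held no match in this window. SRSF5 held CCGGAAG 57 bases before the start. SRSF3 held CCAAT at 70 and 55 bases and TATAAA at 30 bases before the start, and HNRNPD held CCGGAAG at 183 and TATAAA at 126 bases. Of the 36 genes 33 had a promoter in the table, with a median GC content of 65.6%, against 58.0% for 27305 promoters. CCAAT stood in 15 of the 33 (45.5%, against 33.0% of all), CCGGAAG in 5 (15.2%, against 8.82%), TATAAA in 5 (15.2%, against 11.1%), GCATGCGC in 1 (3.03%, against 2.81%) and TGACGTCA in 0 (1.77% of all). A match is a description of letters and not of a bound site.

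The genes are short. Their median genomic span was 15.4 kb, against 28.3 kb for all tested genes. PTBP3, which fell most in the OPM1-labelled cells, was also the longest at 162 kb, and SRSF5, which rose, the shortest at 4.86 kb. Over the 34 genes the log2 span correlated with the log2 change at r = -0.25 in MM1S and -0.38 in OPM1-labelled cells (rho -0.15 and -0.25), which describes genes measured on the same arrays.

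Probe sets of 1 gene often moved in opposite ways. At the level of probe sets, fitted across 21670 of them, 20 of the 117 were called higher and 34 lower in MM1S, where 14.2% and 21.7% of all tested probe sets were, and 24 higher and 61 lower in the OPM1-labelled cells, where 23.5% and 39.5% were. Of the 29 genes with at least 2 tested probe sets, 6 had sets called both ways in MM1S, where 2.29% of 5644 genes did, and 10 in the OPM1-labelled cells, where 11.2% did. Between the untreated lines 9 had sets called both ways, where 8.58% did: SRSF1, HNRNPA0, HNRNPA2B1, HNRNPA3, HNRNPD, HNRNPDL, HNRNPH1, HNRNPM and HNRNPU. For the difference between responses 4 did, where 3.86% of all such genes did: SRSF11, HNRNPA0, HNRNPA3 and HNRNPH1. The listed genes had a median of 3 tested sets and all such genes 2. Among genes with at least 4 tested sets, 4 of 13 listed genes (30.8%) were called both ways in each line, against 6.93% of 1024 genes in MM1S and 24.0% in OPM1-labelled cells. SRSF1, HNRNPA1, HNRNPA2B1 and HNRNPM were split in both lines. The count in MM1S rests on few arrays, with 2 genes left without MM1S control 1 and 3 without each of the other MM1S arrays. Which part of a transcript a set reads is not stated in the sources used here.

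SRSF1 showed the widest split in MM1S. Its probe set 226419_s_at rose from 142 and 159 to 616 and 524 (log2 1.72) in MM1S and from 230.4 and 204 to 894 and 704 (log2 1.73) in OPM1-labelled cells. Its probe set 227164_at fell from 403 and 339 to 176 and 165 (log2 -0.99) and from 495 and 435 to 34.4 and 67.7 (log2 -2.61). Another set, 229246_at, rose by 1.20 and 0.99, while the brightest set, 211784_s_at, changed by -0.27 and -0.49. The responses of 226419_s_at differed by 0.01 between the lines (not called), and those of 227164_at by -1.62 (adjusted p = 2.0e-04, limma across probe sets).

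TRA2A was not called on its brightest set in either line (log2 -0.13 and -0.01), but its other 3 tested sets rose in both. Probe set 213593_s_at rose from 502 and 459 to 974 and 1034 in MM1S (log2 1.02) and from 82.8 and 117 to 712 and 741 in OPM1-labelled cells (log2 2.54), the largest rise among all tested sets of these genes. Probe set 229574_at rose by 0.59 and 2.16, and 213575_at by 0.70 and 1.35. As the mean of its probe sets TRA2A was called higher in both lines (0.54 and 1.32).

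SRSF7, an SR protein with a zinc knuckle, was flat on its brightest set (log2 0.23 and 0.05) and split on the others. Probe set 213649_at rose from 742 and 702 to 1559 and 1653 (log2 1.12) in MM1S and from 629 and 827 to 1736 and 2377 (log2 1.45) in OPM1-labelled cells. Probe set 201129_at was not called in MM1S (-0.23). In OPM1-labelled cells it fell from 1723 and 1373 to 345 and 341 (log2 -2.07). SRSF11 behaved likewise in the OPM1-labelled cells, where 200685_at fell from 867 and 702 to 127 and 108 (log2 -2.44) and 236948_x_at rose from 25.5 and 58.4 to 135 and 208 (log2 1.47). SRSF10, a repressor that is activated when dephosphorylated, had 1 set higher (210178_x_at, from 471 and 819 to 895 and 1064, log2 0.62) and 2 lower in those cells, 204299_at (-0.63) and 225348_at (from 211 and 221 to 68.9 and 73.5, log2 -1.27).

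For SRSF3, 4 of its 5 tested sets were called lower in the OPM1-labelled cells. The set 232392_at rose in MM1S from 182 and 216 to 327 and 368 (log2 0.72) and fell in OPM1-labelled cells from 791 and 368 to 143 and 212 (log2 -1.47), although the 2 OPM1 controls lay far apart. HNRNPD had a set of the same kind: 213359_at rose in MM1S from 295 and 329 to 594 and 557 (log2 0.82) and fell slightly in OPM1-labelled cells from 142 and 139 to 83.3 and 109.8 (log2 -0.43), while its 3 brightest sets changed by -1.36, -1.33 and -1.63 in MM1S and by -3.18, -3.16 and -3.53 in OPM1-labelled cells. In MM1S, HNRNPD was called lower on 5 of its 8 tested sets.

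The hnRNP A/B genes were split as well. The HNRNPA2B1 set 225932_s_at read 2875 and 2847 to 3234 and 3535 in OPM1-labelled cells (log2 0.24, not called) and 225107_at rose from 436 and 381 to 657 and 892 (log2 0.86), where 205292_s_at changed by -2.83. In MM1S the 2 former sets rose by 0.32 and 0.59 and the last changed by -0.55. HNRNPA1 rose on 222040_at from 169.7 and 142 to 342 and 374 in OPM1-labelled cells (log2 1.05, and 0.49 in MM1S) and fell on 214280_x_at (-0.56 and -0.53). HNRNPA0 rose on 201055_s_at from 235 and 263 to 925 and 791 (log2 1.66) and fell on 201054_at from 2079.6 and 1833 to 809 and 979 (log2 -1.11). HNRNPA3 rose on 211930_at from 589.8 and 777 to 1298 and 1315 (log2 0.92) and fell on 211932_at from 685 and 589 to 64.9 and 59.9 (log2 -2.82) and on 211929_at (-1.64) in the same cells.

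HNRNPH1, which binds runs of guanine, fell on 213619_at from 13740.3 and 9728 to 6315 and 7015 in OPM1-labelled cells (log2 -0.79) and rose on 201031_s_at from 941 and 1419 to 2997 and 2609 (log2 1.25). As the mean of its sets it was called higher there (0.40). HNRNPM rose on the set 214918_at, from 57.5 and 74.1 to 108 and 116 in MM1S (log2 0.56) and from 50.8 and 41.2 to 127 and 113 in OPM1-labelled cells (log2 0.96). It fell on its 2 brightest sets, with -0.49 and -0.63 in MM1S and -0.79 and -0.65 in OPM1-labelled cells. HNRNPUL1 fell on both tested sets in both lines, and HNRNPR on all 3 sets except for the brightest one in MM1S (-0.27, not called). In OPM1-labelled cells HNRNPC fell on 227110_at from 1489 and 1214 to 90.2 and 93.2 (log2 -3.48) against -0.89 on its brightest set. Its set 200751_s_at showed no such fall, with 1030 and 2295 on the controls and 1725 and 2337 on the treated arrays of these cells.

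**Figure D3:**
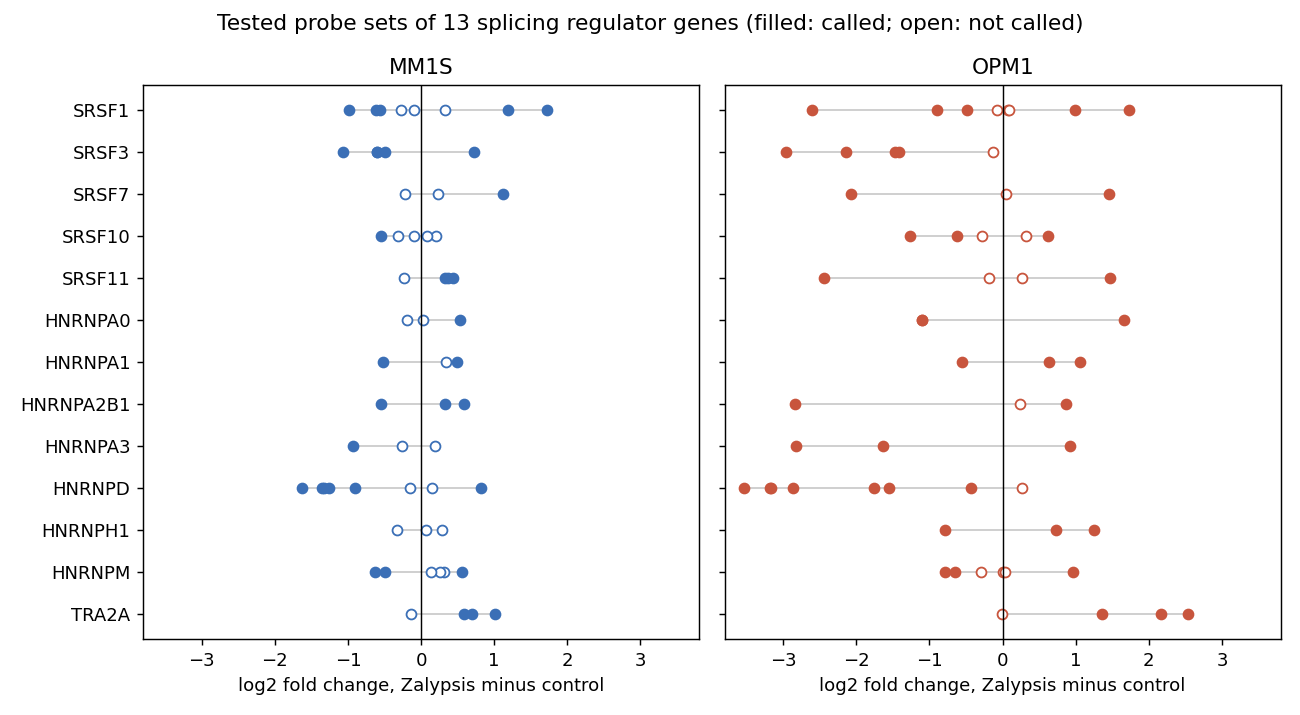
Log2 fold change (Zalypsis minus control) of every tested probe set of 13 genes in MM1S (left) and OPM1-labelled cells (right); filled points were called at an adjusted p under 0.05 across 21670 probe sets, open points were not, and the grey line spans the sets of a gene. SRSF1, HNRNPA1, HNRNPA2B1 and HNRNPM have filled points on both sides of 0 in both lines, and 3 of the 4 TRA2A sets lie to the right.

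The untreated lines differed in 19 of the 34 genes, 10 higher and 9 lower in OPM1-labelled cells, where 29% and 35.8% of all tested genes were. Some of these calls depended on the setting. That of HNRNPAB was lost in 9 settings, that of HNRNPDL in 5 and that of SRSF10 in 3. HNRNPU was higher on its brightest set (0.45) but stood at -0.88 without sets of the suffixes _s_at and _x_at. HNRNPH1 (1.31 ± 0.13), HNRNPA0 (1.09 ± 0.15) and SRSF11 (1.03 ± 0.11) were the furthest above MM1S, and CLK1 (-1.52 ± 0.15), HNRNPF (-1.50 ± 0.18) and SRSF6 (-1.14 ± 0.18) the furthest below. HNRNPF, which binds guanine runs like HNRNPH1, read 998 and 916 in MM1S and 249 and 401 in OPM1-labelled cells. HNRNPH1 read 4328 and 5013 and 13740.3 and 9728, but its second set 201031_s_at went the opposite way (3094 and 2994 against 941 and 1419, log2 -1.37), and the mean of its sets was lower in OPM1-labelled cells (-0.43). The HNRNPA0 set 201055_s_at also went the opposite way to its brightest set (399 and 380 in MM1S against 235 and 263). SRSF11 read 2604 and 2457 and 5273 and 5095, and SRSF6 1124 and 836 and 357 and 501. For these genes the arrays of the lines did not overlap, and the 2 OPM1 controls differed more than the MM1S controls for HNRNPF and HNRNPH1. CLK4 was lower in OPM1-labelled cells as well (-0.54), CLK2 was not called (0.28), and HNRNPA2B1 was lower (-0.46) with a call that rested on OPM1 control 1 (adjusted p = 0.166 without it). The poly-A scaling was made within each line, so it does not adjust the lines to each other and cannot test this comparison. With it 23 were called higher and 1 lower, CLK1, where 58.4% and 11.3% of all tested genes were. All tested genes then had a median of 0.72 in place of -0.05, a shift set by how far control and treated arrays of a line differ in these controls.

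**Figure D4:**
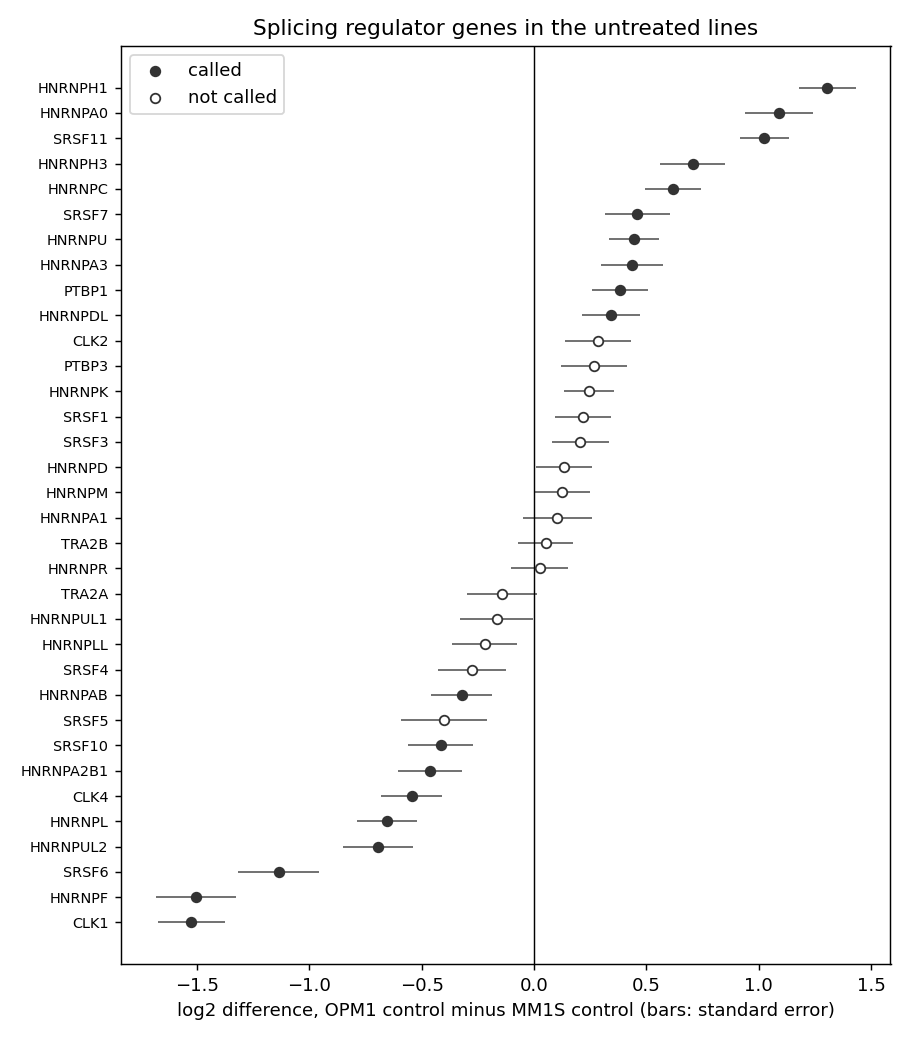
Log2 difference between untreated OPM1-labelled and untreated MM1S cells for the 34 genes, in order (bars are standard errors; 2 arrays per line; filled points were called at an adjusted p under 0.05). The range runs from -1.52 for CLK1 to 1.31 for HNRNPH1, with 10 called genes to the right and 9 to the left.

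Further splicing genes were followed by lists, whose counts and medians stand against 16.6% of all tested genes higher and 21.7% lower (median 0.02) in MM1S and 25.5% higher and 39% lower (median -0.07) in OPM1-labelled cells. Of 31 tested genes for other RNA-binding splicing regulators, 2 rose and 12 fell in MM1S (median log2 -0.26) and 4 rose and 20 fell in OPM1-labelled cells (median -1.04). MBNL2 (-2.27) and KHDRBS3 (-1.99) fell most in MM1S, and MBNL1 (-4.67), a muscleblind regulator, and QKI (-3.69) fell most in OPM1-labelled cells. RBM4 (0.71) and TAF15 (0.44) rose in MM1S, and ILF2 (1.38) and KHSRP (0.39) in OPM1-labelled cells. Of 22 SR-related genes and SR protein kinases, 2 rose and 4 fell in MM1S (median 0.10) and 3 rose and 11 fell in OPM1-labelled cells (median -0.31). RSRC1, an SR-related coiled-coil protein, fell in both lines (-2.77 and -2.69), as did the kinase genes SRPK2 in MM1S (-1.21) and DYRK1A in OPM1-labelled cells (-2.88). SRRM2, a speckle scaffold, rose by 0.60 and 0.47, CLK3, a further CLK gene, by 0.39 in MM1S, and PNN by 0.96 in OPM1-labelled cells.

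For genes of the core spliceosome the same shares of all tested genes apply, 16.6% higher and 21.7% lower in MM1S and 25.5% and 39% in OPM1-labelled cells. Of 19 core snRNP protein genes 1 rose and 2 fell in MM1S and 4 rose and 6 fell in OPM1-labelled cells, with medians of -0.09 and -0.12. SNRPD1 fell in both (-0.46 and -0.85), with LSM6 (-0.82) in MM1S and SNRPA (-1.08) in OPM1-labelled cells, while SNRNP70 (0.47) rose in MM1S and LSM3 (0.64) and LSM2 (0.59) in OPM1-labelled cells. Of 17 genes of SF3A, SF3B and U2AF, 1 rose and 4 fell in MM1S and 5 rose and 7 fell in OPM1-labelled cells, with medians of -0.06 in each. SF3B3 (-1.14 and -2.97) and DDX46 (-0.63 and -2.76) fell and SF3B4 (0.49 and 1.23) rose in both, and SF3B5 rose in OPM1-labelled cells (1.02). Of 28 PRP19, tri-snRNP and second-step genes, 5 rose and 3 fell in MM1S and 13 rose and 8 fell in OPM1-labelled cells, with medians of -0.06 and 0.13. CWC27 fell in both (-2.63 and -3.78), CWC22 in MM1S (-0.59) and EFTUD2 in OPM1-labelled cells (-1.51). SLU7, which helps select the 3' splice site, rose in both (0.66 and 1.67), with BCAS2 (0.78) in MM1S and XAB2 (1.39) in OPM1-labelled cells. Of 13 exon junction and nonsense-mediated decay genes, 2 rose and 5 fell in MM1S and 4 rose and 6 fell in OPM1-labelled cells, with medians of -0.17 and -0.03. UPF2 (-1.20 and -2.64) and the export factor gene THOC2 (-0.89 and -2.51) fell, and SMG8 (0.85 and 1.89) and EIF4A3 (0.38 and 1.02) rose. As for the CLK genes, rises in OPM1-labelled cells are relative to the other genes on the arrays.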

How the data were processed

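Total RNA of 8 samples was hybridised to HG-U133 Plus 2.0 arrays. The authors deposited 1 intensity per probe set and array on a linear scale, analysed with dChip per the series' design text, with version and normalization not given in the sources used here. Arrays have no depth, and their number limits the precision. Of 54675 probe sets, 62 are controls, 41091 carried 1 gene symbol, 1801 several and 11721 none. Symbols of 41037 were updated through the gene identifier (RefSeq, GRCh38.p14).

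Intensities were used as log2(signal + 32). The brightest probe set stood for a gene, and the 40% of genes with the lowest mean signal (below 28.9) were not tested. The 4 contrasts were tested in limma 3.58.1 (R 4.3.3; eBayes with a trend, all 4 groups, 4 residual degrees of freedom) with Benjamini-Hochberg adjustment, over genes and separately over probe sets, after tests on simulated data. Arrays of a group correlated at 0.988 to 0.993, and no pair shared more than 441 identical values. All members and lists were chosen with earlier results of these data known. Genes described array by array are the 5 largest called rises and falls per line, those with probe sets called both ways, and CLK1, CLK2, CLK4, SRSF1, SRSF3, HNRNPA1 and PTBP1. The largest 3 differences each way are named between lines, and up to 2 rises and 2 falls per line from each other list. TRA2A, HNRNPC, SRSF11 and TRA2B probe sets or signals were added after their values were seen. Alternatives were the pseudocount, the filter, quantile and poly-A scaling, 2 other choices of probe set, a replicate block, fits within a line, no trend, a 2-fold rule and leaving out each array, where a lone array is taken to vary like the other groups. The poly-A scaling set the controls of each array to the mean of its line, not of all arrays. Means of probe sets took in sets under the filter. The choice without shared sets read the brightest remaining set of a gene.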

Additional observations from a re-analysis of the deposited data

Results flagged for a closer look

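The response to Zalypsis differed between the lines for 19 of the 34 genes in limma's interaction test. Values are the log2 response in OPM1-labelled cells minus that in MM1S. The response was lower in HNRNPA2B1 (-2.28), PTBP3 (-2.23), HNRNPD (-1.82), HNRNPUL1 (-1.73), HNRNPR (-1.61), SRSF3 (-1.54), HNRNPA3 (-1.38), HNRNPH3 (-1.24), HNRNPUL2 (-1.09), HNRNPH1 (-1.08), HNRNPA0 (-0.91), PTBP1 (-0.88), HNRNPLL (-0.86), HNRNPC (-0.62), TRA2B (-0.60), HNRNPU (-0.52) and SRSF11 (-0.52). Of these, HNRNPR was not called without probe sets of the suffixes _s_at and _x_at (-0.20), where HNRNPA2B1 turned (0.27). As means of probe sets HNRNPA0, PTBP1, HNRNPU and TRA2B were not called, and HNRNPH1 turned (0.32). For SRSF11, HNRNPA0, HNRNPA3 and HNRNPH1, the difference was called lower on at least 1 probe set and higher on at least 1 other. The mean of PTBP1 is made up mostly of sets under the signal filter and cannot test its difference. The response was higher in SRSF5 (0.98) and CLK1 (1.39), which turned with the poly-A scaling. At the level of probe sets, 2 were called in opposite directions in the lines and differed by the same test: SRSF3 probe set 232392_at (-2.19) and HNRNPD probe set 213359_at (-1.25).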

How the results depend on the processing

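Of 1842 recomputed fold changes of the listed genes, 1673 kept their direction and their side of the threshold or were not called in either setting, 83 lost the call, 42 gained it and 44 turned. Scaled by the poly-A controls, genes called (higher, lower) numbered 6 (0, 6) in MM1S, 32 (0, 32) in OPM1-labelled cells, 32 (0, 32) for the difference between responses, 24 (23, 1) between the untreated lines, probe sets called 28 in MM1S and 108 for the difference, and genes with sets called both ways 1 in each line. After quantile normalization 9 genes were higher in OPM1-labelled cells and 4 for the difference. As means of probe sets 7 were lower in MM1S and 8 higher in OPM1-labelled cells. Without probe sets of the shared kind 25 of the 34 genes could be tested, with 3 higher in OPM1-labelled cells, 1 higher for the difference, and 12 called (5 lower) between the untreated lines. By a 2-fold threshold with no test, genes called (higher, lower) numbered 2 (0, 2) in MM1S, 15 (2, 13) in OPM1-labelled cells, 6 (3, 3) between the untreated lines. Leaving out 1 array, genes called higher in MM1S numbered 3 to 7, genes called lower in MM1S numbered 7 to 13, genes with probe sets called both ways in MM1S numbered 2 to 7. With a replicate block, 22 genes were called in MM1S, 27 in OPM1-labelled cells, 22 for the difference, and 25 when the untreated lines were compared, and it turned no direction. Deviations of same-numbered arrays correlated at 0.21 in MM1S and 0.20 in OPM1-labelled cells, but 2 pairs a line share only a number. Directions turned with the poly-A scaling for SRSF5 -0.38, SRSF6 -1.20, SRSF7 -2.04, SRSF10 -1.71, HNRNPF -1.86, HNRNPL -1.40, CLK2 -1.43, CLK4 -1.19 in OPM1-labelled cells, and SRSF5 -0.84, CLK1 -0.30 for the difference between responses, and SRSF10 0.50, HNRNPA2B1 0.48, HNRNPAB 0.62, HNRNPL 0.085, HNRNPUL2 0.20, CLK4 0.29 between the untreated lines. This scaling was made within each line, so its values and counts between the untreated lines do not test that comparison. Directions turned as means of probe sets for TRA2A 0.54, HNRNPA1 0.10, HNRNPA2B1 0.072, HNRNPM 0.023 in MM1S, and TRA2A 1.32, HNRNPA1 0.38, HNRNPH1 0.40 in OPM1-labelled cells, and HNRNPH1 0.32 for the difference between responses, and HNRNPA2B1 0.033, HNRNPA3 -0.017, HNRNPH1 -0.43, HNRNPU -0.41 between the untreated lines. Directions turned without shared probe sets for SRSF3 0.72, SRSF11 -0.23, HNRNPA1 0.49, HNRNPA2B1 0.59, HNRNPD 0.82, HNRNPM 0.32, HNRNPU -0.82 in MM1S, and SRSF10 -0.63, HNRNPA1 1.05, HNRNPA2B1 0.86, HNRNPM 0.0039 in OPM1-labelled cells, and HNRNPA2B1 0.27 for the difference between responses, and SRSF7 -0.00028, SRSF10 0.11, HNRNPU -0.88 between the untreated lines. Directions turned after quantile normalization for TRA2A 0.28 in OPM1-labelled cells. The cause of these shifts was not tested.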
